A study of Mus musculus with 9 samples.

Results

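In MLL-ENL leukemia cells that had lost the floxed gene and then received Flag-tagged Hhex, H3K27me3 was within 1.5-fold of the floxed level over most genes, but not over all of them. The mark lay far above the floxed level over Nt5c3b, Vamp4, Mpo, Ctdspl, Slc28a2 and Jup, and far below it over Nrp2, Ica1, Mical3 and Fnbp1l. Of 26611 genes with a symbol, 10856 (40.8%) averaged 20 counts or more in the rescue and floxed libraries, and these are the genes compared and called measured. Just inside that limit were 1700019N19Rik, with 17 counts in rescue, 20 in deleted and 23 in floxed, and 4930483K19Rik, with 32, 21 and 8. Just outside it, at a mean of 19.5, were 4932416K20Rik, with 19, 13 and 20, and 9330188P03Rik, with 18, 9 and 21.

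H3K27me3 is the trimethylation of lysine 27 on histone H3 that Polycomb repressive complex 2 (PRC2) lays down over silent genes, often in broad stretches that span several neighbouring genes. H3K4me3 marks the starts of active or poised genes and usually runs opposite to it, except at bivalent promoters that carry both. Hhex is a homeobox transcription factor of blood and liver progenitors that mostly acts as a repressor, and MLL-ENL is a fusion oncoprotein that drives acute myeloid leukemia. The series title asks whether this leukemia needs Hhex for PRC2 to silence Cdkn2a. The rescue line tests whether adding Hhex back restores the mark.

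The cells are mouse MLL-ENL leukemia cells, and that fusion is common to all groups. The rescue line is labelled ΔERT2 + Hhex-F and holds the deletion together with Flag-tagged Hhex. The deleted line is labelled ΔERT2, and the floxed line fl. No label names the gene that was floxed; it is read as Hhex from the title and the tagged gene. Labels do not say whether a line is a clone, how many animals it came from or what drives the tagged gene. Chromatin was sonicated and precipitated with antibodies to H3K27me3, H3K4me3 or the Flag tag.

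Each mark and line has 1 library, so no difference has a replicate check and every statement describes these libraries. H3K27me3 counts over whole gene spans came to 4203349 in rescue, 2535576 in deleted and 2444487 in floxed. H3K4me3 counts, in a window of 301 bp for nearly every gene, whose position is not given, came to 395133, 420701 and 645240. The labelled myeloid cells were checked on H3K4me3, and 9 of 11 granulocyte and monocyte markers had at least 20 counts in rescue and likewise in floxed. Of 6 markers each for other cells, those of B cells reached that 0 times in rescue and 1 time in floxed, T and NK cells 0 and 0 times, erythroid and megakaryocyte cells 0 and 2 times, and stromal and endothelial cells 0 and 1 times. Since the cells were assayed in bulk, more of the mark per cell and more cells with the mark cannot be told apart.

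Most genes lay close to the diagonal. Counts were scaled to the named-gene total of their library, the unit CPM, and the ratio of rescue over floxed was within 1.5-fold for 8931 genes (82.3%). The median log2 ratio was -0.05, with quartiles at -0.28 and 0.18. A gene was called higher or lower when its ratio was at least 1.5-fold from 1 and the 95% exact (Clopper-Pearson) interval of the ratio left out 1. Those intervals cover counting error only. By this rule 643 genes (5.92%) were higher and 850 (7.83%) lower in rescue. At 2-fold, 325 (2.99%) were higher and 309 (2.85%) lower. The far tail was uneven, with 56 genes at least 5-fold higher and 10 at least 5-fold lower. The count limit bears on this balance: 171 of the 325 higher genes had under 20 floxed counts and passed through their rescue counts. Of the 309 lower genes, 46 had under 20 rescue counts and passed through their floxed counts. With the limit set on the deleted library instead, at 20 counts, 199 of 10134 genes were 2-fold higher and 333 lower. That alternative was chosen after seeing the data.

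**Figure D1:**
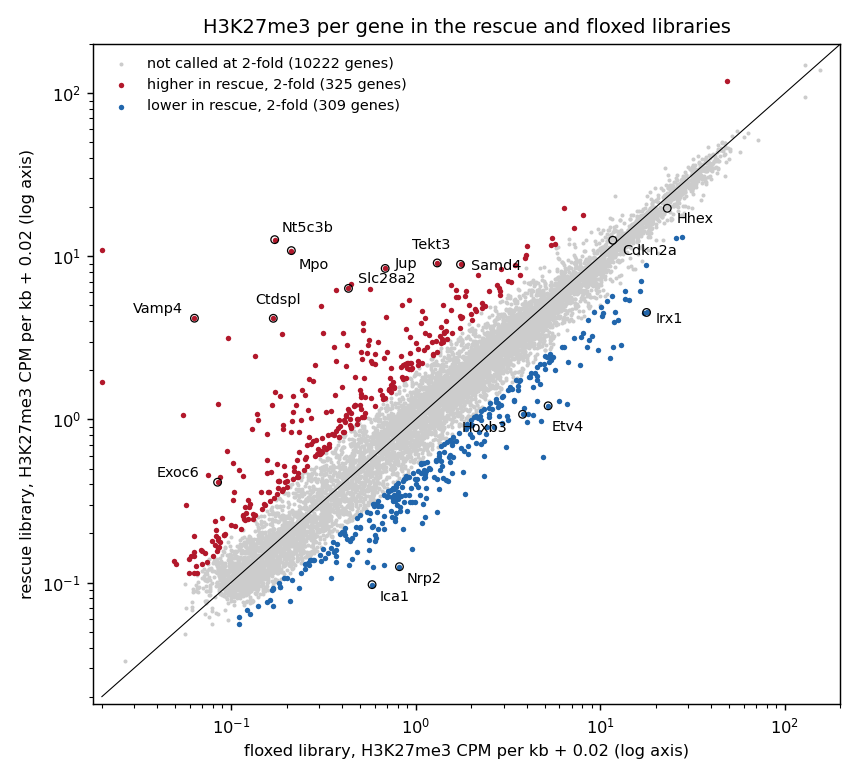
H3K27me3 per gene, in CPM per kb of span plus 0.02 on log axes, with rescue on the vertical and floxed on the horizontal axis. Each point is 1 of 10856 measured genes, red where rescue was 2-fold higher (325 genes) and blue where it was 2-fold lower (309 genes). Red points reach far above the line of equal levels from low floxed levels, while blue points stay closer to it, and Cdkn2a and Hhex lie near the line.

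That balance depends on the scaling. Over 32 housekeeping genes, where H3K27me3 reads are mostly background, the pooled counts were 258 in rescue, 119 in deleted and 103 in floxed. This is 0.200, 0.153 and 0.138 CPM per kb, and a ratio of rescue over floxed of 1.46 (1.15 to 1.85). Actb, 1 of these genes and itself called higher in rescue, gave 39, 13 and 6 of those counts. With the libraries scaled to these genes, the median log2 ratio of all genes was -0.59, and 171 genes were higher against 5107 lower. The part of this higher background in the results was not tested.

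Cdkn2a, the gene of p16 and p19ARF, which hold back cell division, was back at the floxed level. It had 1060 counts in rescue, 164 in deleted and 575 in floxed, and a ratio of rescue over floxed of 1.07 (0.968 to 1.19). Cdkn2b, the p15 gene beside it, had 91, 5 and 62 counts, and the ratio was 0.854 (0.611 to 1.20). For both genes the deleted library was the low one, and rescue and floxed did not differ by the size rule. Hhex itself had 487, 385 and 332 counts, and the ratio was 0.853 (0.740 to 0.984), which is under 1.5-fold. Scaled to the housekeeping genes, the ratios were 0.736 for Cdkn2a, 0.586 for Cdkn2b and 0.586 for Hhex. Those of Cdkn2b and Hhex are then more than 1.5-fold below 1, so their match to floxed depends on the scaling.

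Around Hhex, the H3K27me3 difference passed the size rule over a neighbour and not over the gene. Exoc6, which encodes a subunit of the exocyst complex for secretion, is the next measured gene, 96.0 kb after Hhex on chromosome 19. It had 219 counts in rescue, 22 in deleted and 21 in floxed, a ratio of 6.06 (3.87 to 9.996). Its rescue density was only 0.392 CPM per kb, under the rescue median of 1.55, while that of Hhex was 19.7. The H3K4me3 window of Hhex had 130, 68 and 60 counts, and the ratio was 3.54, so it was called higher in rescue. The window counts both the native gene and any part of the added copy that maps there, which cannot be told apart.

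The promoters of 5 genes on which the results below turn are printed here because H3K27me3 differed over the gene. Both marks were measured at each but Slc28a2, whose H3K4me3 window had too few counts. They differ in how many CG dinucleotides they hold, and CG-rich promoters are known as the usual landing sites of PRC2. Each runs from 250 bases before to 50 after a start of the gene, 5′ to 3′, as RefSeq gives it for GRCm38.p6. For Slc28a2 that start lies 78 bases inside the gene span used here. CG is in capitals and reads the same on both strands. They lie on the plus strand at chr11:87793534-87793833 for Mpo, chr2:122426185-122426484 for Slc28a2, chr11:63128732-63129031 for Pmp22, chr14:46882715-46883014 for Samd4 and chr1:62703067-62703366 for Nrp2.
Mpo: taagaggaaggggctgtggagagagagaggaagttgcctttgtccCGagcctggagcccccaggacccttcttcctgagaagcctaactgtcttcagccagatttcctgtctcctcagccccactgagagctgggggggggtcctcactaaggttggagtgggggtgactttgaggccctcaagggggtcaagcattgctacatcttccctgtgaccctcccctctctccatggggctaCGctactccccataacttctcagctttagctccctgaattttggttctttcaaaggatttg
Slc28a2: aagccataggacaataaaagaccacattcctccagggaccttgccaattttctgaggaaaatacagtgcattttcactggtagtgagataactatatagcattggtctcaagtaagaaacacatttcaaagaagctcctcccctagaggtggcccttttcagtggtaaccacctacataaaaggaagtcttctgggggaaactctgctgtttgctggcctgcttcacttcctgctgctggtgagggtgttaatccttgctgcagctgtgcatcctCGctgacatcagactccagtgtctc
Pmp22: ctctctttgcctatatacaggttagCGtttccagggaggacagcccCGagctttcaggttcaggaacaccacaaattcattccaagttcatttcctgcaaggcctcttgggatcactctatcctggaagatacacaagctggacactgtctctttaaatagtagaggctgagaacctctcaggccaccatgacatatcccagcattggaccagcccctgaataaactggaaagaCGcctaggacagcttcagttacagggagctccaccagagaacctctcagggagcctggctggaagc
Samd4: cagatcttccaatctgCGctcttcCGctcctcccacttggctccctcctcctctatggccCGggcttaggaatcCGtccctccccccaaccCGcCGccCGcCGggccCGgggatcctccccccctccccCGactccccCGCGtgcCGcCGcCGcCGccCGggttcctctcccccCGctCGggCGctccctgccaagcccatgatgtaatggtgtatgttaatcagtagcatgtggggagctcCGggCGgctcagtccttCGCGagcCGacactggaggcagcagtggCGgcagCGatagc
Nrp2: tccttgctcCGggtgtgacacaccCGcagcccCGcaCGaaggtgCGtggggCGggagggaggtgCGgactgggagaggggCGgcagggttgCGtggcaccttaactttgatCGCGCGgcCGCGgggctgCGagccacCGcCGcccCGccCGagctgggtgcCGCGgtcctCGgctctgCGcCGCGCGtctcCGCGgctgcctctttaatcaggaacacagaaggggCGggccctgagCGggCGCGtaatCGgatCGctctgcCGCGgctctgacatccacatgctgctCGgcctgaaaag
These promoters hold 2, 1, 3, 27 and 37 CG. Among 8159 promoters of measured genes the median was 12, and 97.5% held at least 1. Of these genes, H3K27me3 was higher in rescue over Mpo, Slc28a2 and Pmp22, with CG-poor starts, and over Samd4 with a CG-rich one. They were picked, and stand for no wider set. Whole gene sets were not compared for CG, since only 75.2% of measured genes had a promoter in that table.

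The largest gains were over genes that had next to no H3K27me3 in the other libraries. Nt5c3b, a nucleotidase gene (chromosome 11, 100422317 to 100441808), had 996 counts in rescue, 6 in deleted and 7 in floxed, a ratio of rescue over floxed of 82.7 (40.01 to 206). Vamp4, which encodes a SNARE protein of the trans-Golgi network (chromosome 1, 162570515 to 162599082), had 493, 10 and 3 counts, and the ratio was 95.6 (32.5 to 465). Mpo encodes myeloperoxidase, the granule enzyme of neutrophils (chromosome 11, 87793784 to 87804412). It had 483, 6 and 5 counts, and the ratio was 56.2 (23.9 to 174). In all of these, rescue alone was high while deleted and floxed were alike and near 0. With so few floxed counts, these genes passed the count limit through rescue alone. Their low floxed level is thus partly built in by ranking on the ratio.

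Higher counts in rescue also stood over genes of larger span. Ctdspl, a small phosphatase gene of chromosome 9 (118926536 to 119044119), had 2049 counts in rescue, 53 in deleted and 43 in floxed, a ratio of 27.7 (20.5 to 38.4). Tnk2, which encodes the tyrosine kinase ACK1, had 543, 16 and 16 counts, and the ratio was 19.7 (12.04 to 34.8). It passed the count limit through its rescue counts. Slc28a2, a nucleoside transporter gene of chromosome 2, had 923, 12 and 35 counts, and the ratio was 15.3 (10.9 to 22.2). Samd4, which encodes a translational repressor of the Smaug family, had 8334, 340 and 943 counts, and the ratio was 5.14 (4.80 to 5.50). Here deleted lay below floxed for Slc28a2 and Samd4, and rescue was above both.

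The other genes of the 12 with the largest gains followed the same course. Egln3, a prolyl hydroxylase gene of the hypoxia response, had 255 counts in rescue, 11 in deleted and 7 in floxed (21.2-fold). Zc3h12c, a gene of the regnase family of RNases, had 289, 7 and 9 (18.7-fold). Klhl10, a kelch protein gene needed for sperm formation, had 391, 12 and 13 (17.5-fold). Their floxed levels were all under 20 counts, so these genes, like Klhl23 below, passed the count limit through rescue alone. Klhl23, another kelch gene, had 297, 12 and 10 (17.3-fold). Jup, the plakoglobin gene of cell junctions, had 1022, 14 and 47 (12.6-fold). Gbas, a mitochondrial protein gene, had 470, 25 and 24 (11.4-fold).

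Gains came mostly over genes that were sparse in the mark in deleted cells. Of the 325 genes 2-fold higher in rescue, 281 (86.5%) were at or under the median read density of the deleted library, a library on neither side of the ratio. Of the 309 genes 2-fold lower, 189 (61.2%) were, against 50% of all measured genes by construction. With the limit of 20 counts set on the deleted library, the shares were 170 of 199 (85.4%) and 213 of 333 (64.0%). In the 3 lowest of 10 density classes of the deleted library, 207 genes were 2-fold higher and 77 lower. Sparse genes could pass the count limit through high rescue counts alone, so part of that excess is built in by the limit. In the densest class, 2 were higher and 26 lower, and the median log2 ratio was -0.11. That class held 13.7% of rescue counts and 15.1% of floxed counts.

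Few of these genes crossed the whole range of density. A gene was taken as gained from background where it was at or under the median density in floxed (1.54 CPM per kb) and at or over the 90th percentile in rescue (8.20 CPM per kb). That held for 5 of 10856 genes (0.0461%), namely Jup, Mpo, Nt5c3b, Tekt3 and Vmn1r210, and for 0 genes (0%) in the other direction. Background here means only at or under the median, which lies above the floxed level of the housekeeping genes (0.138 CPM per kb). Tekt3, for one, had 105 floxed counts, at 1.29 CPM per kb. Vmn1r210, a vomeronasal receptor gene, had 42 counts in rescue, 0 in deleted and 0 in floxed, where 0 allows up to 3 counts. It belongs to a family of near-identical copies, so its reads are uncertain. With the 75th percentile in place of the 90th, a limit added after seeing the values, 24 genes were gained and 11 lost. Of the 24 gained, 23 were also at or under the median density in deleted, and all 11 lost genes were at or over it in deleted.

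Losses were smaller in fold, and over the genes given here deleted and floxed both had more counts than rescue. Nrp2, which encodes neuropilin 2, a receptor for semaphorins and VEGF (chromosome 1, 62703317 to 62818692), had 51 counts in rescue, 258 in deleted and 225 in floxed. Its ratio of rescue over floxed was 0.132 (0.0953 to 0.179). Ica1, an islet autoantigen gene involved in secretory vesicles, had 48, 239 and 203 counts, and the ratio was 0.138 (0.0982 to 0.189). Mical3, an actin-oxidising enzyme gene, had 44, 222 and 170 counts, and the ratio was 0.151 (0.105 to 0.211). Deleted and floxed were alike for these genes, and rescue was lowest. Their floxed densities were 0.798, 0.561 and 0.935 CPM per kb in that order, under the floxed median of 1.54.

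Of the other genes among the 12 with the largest losses, those given here were lowest in rescue as well. Fnbp1l, which encodes an F-BAR protein of actin assembly, had 112 counts in rescue, 323 in deleted and 361 in floxed (ratio 0.180). Car12, a carbonic anhydrase gene, had 56, 158 and 168 (ratio 0.194). Etv4, an ETS transcription factor gene, had 78, 226 and 198 (ratio 0.229). Shisa2, a gene for a modulator of Wnt and Fgf receptors, had 33, 69 and 103 (ratio 0.186). Cep41, a cilium gene, had 36, 125 and 104 (ratio 0.201), and Agap3, an Arf GTPase regulator gene, had 22, 58 and 69 (ratio 0.185). Syna, a placental gene of retroviral origin, had only 7, 30 and 35 counts (ratio 0.116, interval 0.0436 to 0.266). Floxed density was over its median of 1.54 CPM per kb at Fnbp1l, Etv4, Shisa2 and Syna. It was under that median at Car12, Cep41 and Agap3.

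Some gained genes lay side by side. A run of neighbouring measured genes that were all 2-fold higher, with gaps of at most 100 kb, was taken as a gained domain. There were 26, on 13 chromosomes, with 2 to 7 genes each and a median length of 89.5 kb (14.5 to 204 kb). They held 65 (20.4%) of the 319 genes that were 2-fold higher and had a position. Lost domains, defined alike, numbered 14, on 8 chromosomes, with 2 genes each and a median of 49.1 kb. They held 28 (9.15%) of 306 genes. With the limit of 20 counts set on the deleted library, which leaves out genes such as Mpo and Nt5c3b, there were 9 gained and 16 lost domains, so the larger number of gained domains rests on the count limit.

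The largest gained domain ran from Jup to Ttc25 on chromosome 11, 100368856 to 100572566, and pooled 3406 counts in rescue, 189 in deleted and 331 in floxed (5.98-fold). Between the plakoglobin gene and Nt5c3b lie P3h4 and Fkbp10, both for collagen processing in the endoplasmic reticulum. P3h4 had 454, 57 and 120 counts, and the ratio was 2.20 (1.80 to 2.71), and Fkbp10 had 454, 72 and 126 and a ratio of 2.10 (1.72 to 2.57). These already carried the mark in floxed, at 8.08 and 5.64 CPM per kb. Past Klhl10, the level dropped: Acly, the ATP citrate lyase gene, had 38, 11 and 9 counts, and the cilium gene Ttc25 had 51, 17 and 9. In rescue these are 0.175 and 0.450 CPM per kb, beside 0.200 over the housekeeping genes and 6.16 at Klhl10. Both genes passed the count limit through rescue alone, so the dense part of the run ended at Klhl10. The next measured genes outside did not reach 1.5-fold, at 1.20 for Hap1 before and 1.16 for Zfp385c after. Nt5c3b overlaps both Fkbp10 and Klhl10, so their reads may be shared.

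The Mpo domain, from Rnf43 to Lpo on chromosome 11 (87663087 to 87826114), pooled 1763 counts in rescue, 214 in deleted and 208 in floxed (4.93-fold). Rnf43, which encodes a ubiquitin ligase that removes Wnt receptors, had 323, 12 and 21 counts, and the ratio was 8.94 (5.75 to 14.6). Bzrap1, an adaptor protein gene, had 374, 31 and 31 counts, and the ratio was 7.02 (4.86 to 10.5). Lpo, the lactoperoxidase gene, had 583, 165 and 151 and a ratio of 2.25 (1.87 to 2.70). The eosinophil peroxidase gene Epx, 37.9 kb further on, was not called (128, 70 and 69 counts, ratio 1.08). On the other side Hsf5 stood at 2.00 (1.43 to 2.84), just under the 2-fold limit.

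**Figure D2:**
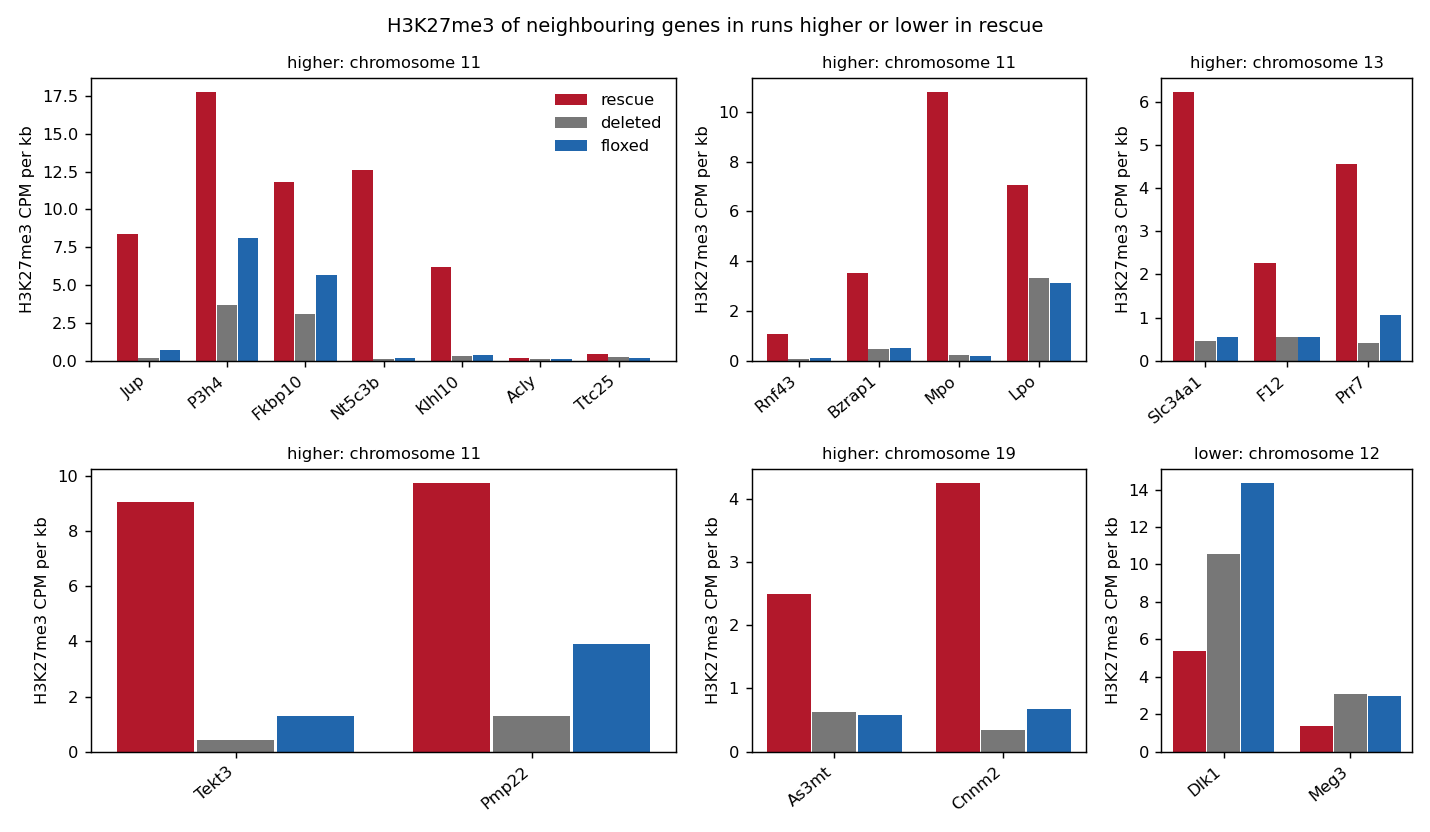
H3K27me3 in CPM per kb of gene span for the genes of 5 gained domains and 1 lost domain, in chromosome order, with 1 bar each for rescue, deleted and floxed. Rescue stands above both other bars in the gained domains, most of all at Nt5c3b and Mpo, and below both at Dlk1 and Meg3 on chromosome 12.

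Other gained domains held fewer genes. As3mt, the arsenite methyltransferase gene, and Cnnm2, a magnesium transport gene, on chromosome 19 had 353, 53 and 48 counts and 2091, 103 and 191 counts in rescue, deleted and floxed. Their ratios were 4.28 and 6.37, while Cyp17a1 before them stood at 1.24 and Nt5c2 after them at 1.17. Tekt3, a sperm flagellum gene, and Pmp22, the peripheral myelin protein gene, on chromosome 11 had 1271, 37 and 105 and 1150, 91 and 267 counts. Their ratios were 7.04 and 2.50, and Cdrt4 before them was higher as well at 1.82. In both pairs rescue was above deleted and floxed at each gene.

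Vamp4 lies beside Myoc, the myocilin gene, which had 152 counts in rescue, 36 in deleted and 36 in floxed (2.46-fold). Dnm3 before them, at 1.21, and Prrc2c after them, at 1.39, were not called. On chromosome 13, the renal phosphate transporter gene Slc34a1 had 395, 17 and 20 counts, the coagulation factor XII gene F12 had 84, 12 and 12, and Prr7 had 171, 9 and 23. Together they were 6.87-fold higher in rescue. Kif1c with Zfp3 (2.21-fold) and Loxl2 with R3hcc1 (2.44-fold) were also in the 8 gained domains with the most counts. A run of 6 Serpina genes on chromosome 12 had 392, 63 and 54 counts pooled (4.22-fold), but the Serpina1 copies among them are near identical and their reads uncertain.

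Ctdspl and Slc28a2 gained without such a run. Itga9 before Ctdspl had a ratio of 0.874 and Vill after it 1.28, and neither was called. Shf before Slc28a2 (1.71) and Gm14085 after it (1.83) were higher at 1.5-fold but not at 2-fold. Klhl23 stood alone, between Ccdc173 at 0.901 and Ubr3 at 0.822. Of the 12 genes with the largest gains, 8 had a nearest neighbour that was higher at 1.5-fold, and 12 of their 24 neighbours were. For the 12 largest losses, 3 had a lower neighbour, and 4 of 24 neighbours were lower. Among all measured genes 5.92% were higher and 7.83% lower. Jup, Nt5c3b and Klhl10 lie in 1 run, so these neighbours are not separate cases.

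Lost domains were pairs. Dlk1, which encodes a Notch-like ligand, and Meg3, a non-coding RNA, are imprinted genes of chromosome 12 (109452485 to 109571729). They had 416 counts in rescue, 520 in deleted and 592 in floxed together (ratio 0.409), and Rian, the next imprinted RNA gene, had 310, 342 and 308 (ratio 0.585). Begain, 384 kb before Dlk1, was at 0.971. Six5, a homeobox gene, and Gipr, the gene of an incretin receptor, had 147, 289 and 271 counts together (ratio 0.315), and Dmpk next to Six5 stood at 0.570.

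The remaining lost pairs with the most counts had less depth. Pla2g5 with Pla2g2e, both phospholipase genes, had a pooled ratio of 0.467 (0.387 to 0.562). Mllt6, a known MLL fusion partner gene, with Pcgf2, which encodes a PRC1 subunit, had 0.462 (0.377 to 0.565). Oas2 with Oas3, interferon-induced antiviral genes with similar copies nearby, had 0.442 (0.352 to 0.554). Pcsk4 with Reep6 had 0.491, and Clip2 with Syna 0.409.

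Neighbours were counted over all 2-fold genes as well. Of 417 nearest measured neighbours within 100 kb of a 2-fold higher gene, 78 (18.7%) were 2-fold higher, against 3.004% of all 13981 such neighbours. For 2-fold lower genes, 28 of 418 (6.70%) were lower, against 2.95%. Only 2 of 417 and 2 of 418 (0.480% and 0.478%) went the opposite way. By distance, 25.4% of genes within 10 kb of a higher gene were higher too, 9.26% at 50 to 100 kb and 3.85% at 200 to 500 kb. Around lower genes the shares were 13.3%, 6.05% and 4.02%, with no steady decline between them (3.51% at 25 to 50 kb). The median log2 ratio around higher genes was 0.36 within 10 kb and -0.04 at 200 to 500 kb, and around lower genes -0.30 and -0.08. Genes that overlap the called gene itself were left out of these counts, though 20.3% of measured genes overlap some other gene. Among the nearest neighbours, a pair of adjacent called genes can be counted from each side. Neighbours such as Acly and Ttc25 passed the count limit through rescue counts alone. Part of the higher share around higher genes is thus built in by the limit, and how large a part was not tested.

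**Figure D3:**
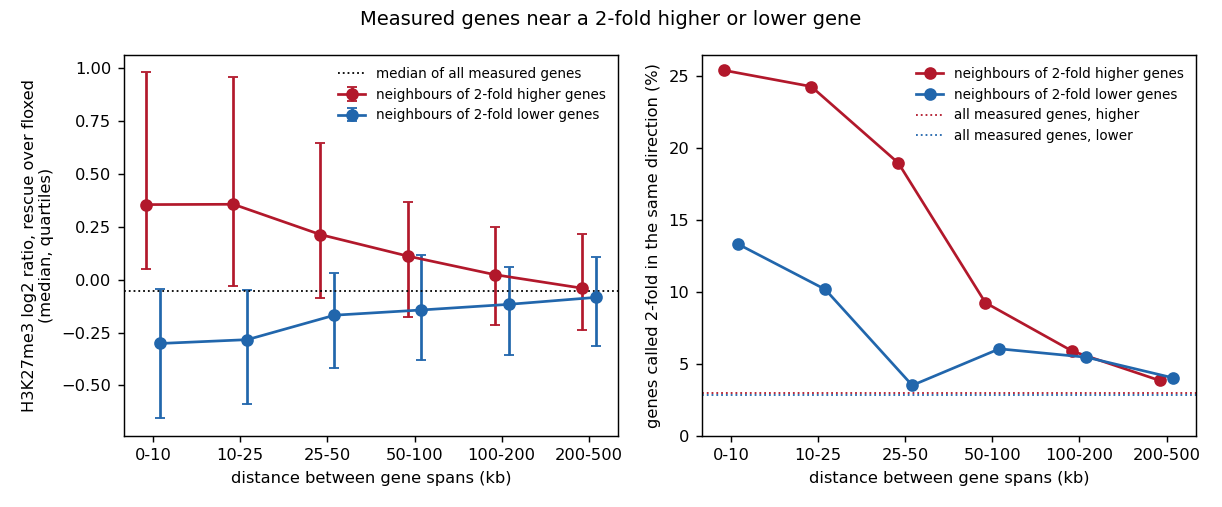
Measured genes by their distance in kb from a gene 2-fold higher (red) or 2-fold lower (blue) in rescue: on the left their median log2 ratio of rescue over floxed with quartiles, on the right the share called 2-fold in the same direction. Dotted lines give all measured genes. Genes could pass the count limit through rescue counts alone, which builds in part of the red share. Both shares are largest within 10 kb, at 25.4% and 13.3%, and come near the dotted lines by 200 to 500 kb.

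H3K4me3 was not used to choose these genes. The same limit of 20 counts on average left 6762 windows, of which 132 (1.95%) were higher and 261 (3.86%) lower in rescue. Among the 2430 genes measured for both marks, 50 (2.06%) were higher and 151 (6.21%) lower. Of the 325 genes 2-fold higher in H3K27me3, 80 were measured for H3K4me3, and 3 (3.75%) had more H3K4me3 and 10 (12.5%) less. Their median log2 ratio was -0.14. Of the 309 genes 2-fold lower, 111 were measured, and 4 (3.60%) had more H3K4me3 and 2 (1.80%) less. Their median was 0.04. The median of all genes measured for both was -0.04.

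At several gained genes H3K4me3 was lower. Pmp22 had 18 H3K4me3 counts in rescue, 105 in deleted and 125 in floxed, a ratio of 0.235 (0.135 to 0.387). Samd4 had 32, 127 and 153 and a ratio of 0.342 (0.226 to 0.503). Whether these windows cover the starts printed above is not known, since the window position is not given. Mpo had 32, 49 and 89 and a ratio of 0.587 (0.379 to 0.888), and Rnf43 had 59, 114 and 175 and a ratio of 0.551 (0.403 to 0.743). For Pmp22 and Samd4 only rescue was low, with many counts in both deleted and floxed.

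Slc28a2 had 1 H3K4me3 count in rescue, 50 in deleted and 37 in floxed, but its mean of 19 put it under the limit. The other genes with higher H3K27me3 and lower H3K4me3 were As3mt, Zdhhc2, Myo1e, Gng12, F5 and Ppm1d, with H3K4me3 ratios of 0.521 to 0.618. Myo1e, an unconventional myosin gene, had 4521, 365 and 789 H3K27me3 counts beside 33, 83 and 100 H3K4me3 counts. Both marks were higher at Vamp4, Mthfs and Actb. The H3K4me3 counts of Vamp4 were 137, 74 and 114 (ratio 1.96, 1.52 to 2.54). Vamp4 had the largest H3K27me3 ratio of the genes with any floxed count.

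The relation could also be read from the side of H3K4me3. The 151 genes with lower H3K4me3 had a median H3K27me3 log2 ratio of 0.04, with 22 (14.6%) higher and 6 (3.97%) lower at 1.5-fold. The 50 genes with higher H3K4me3 had a median of -0.26, with 3 (6%) higher and 8 (16%) lower. All 2430 had a median of -0.08, with 148 (6.09%) higher and 231 (9.51%) lower, so the 6% higher is near the share of all. Fgf10, a growth factor gene, was in the second set, with 376 H3K27me3 counts in rescue, 447 in deleted and 470 in floxed (ratio 0.465) and 38, 33 and 28 H3K4me3 counts (ratio 2.22). Nrp2 was not, with 108, 123 and 156 H3K4me3 counts (ratio 1.13). Gm15663, a predicted gene, was lower in both marks, with H3K27me3 at 0.308 and H3K4me3 at 0.208.

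**Figure D4:**
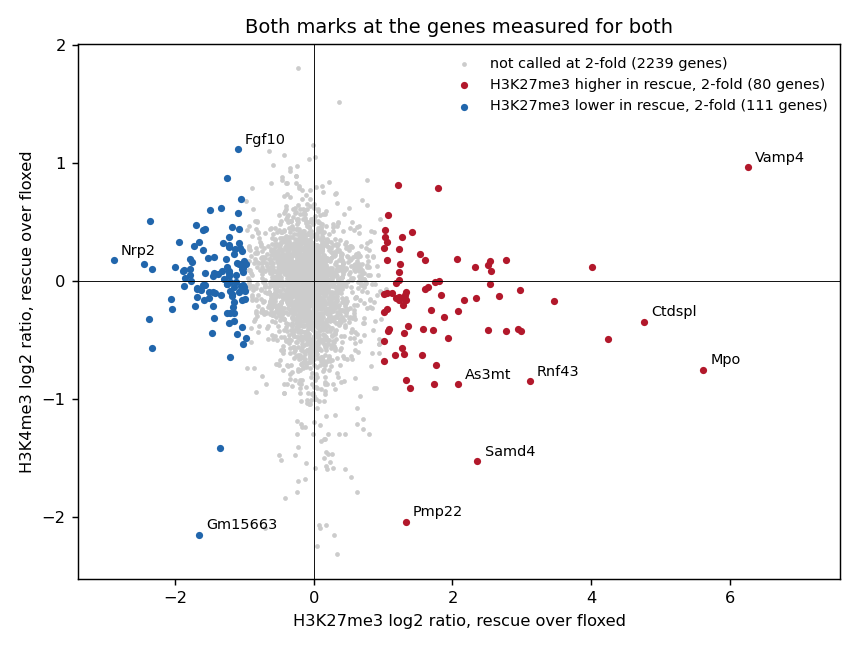
Log2 ratio of rescue over floxed for H3K27me3 (horizontal) and H3K4me3 (vertical) at the 2430 genes measured for both marks, red where H3K27me3 was 2-fold higher (80 genes) and blue where it was 2-fold lower (111 genes). Pmp22, Samd4, Rnf43 and Mpo lie at the lower right, with more H3K27me3 and less H3K4me3 in rescue, and Vamp4 lies at the upper right.

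Flag summits were rare near measured genes as a whole, those that did not match included. The deposited lists hold 429 summits in rescue, 220 in deleted and 475 in floxed, although only rescue carries the tag. A rescue summit lay in the span or within 10 kb of 2 (0.627%) of the 319 genes 2-fold higher with a position, 1 (0.327%) of the 306 lower and 104 (0.979%) of all 10619. Cped1 was among the higher genes, with summits in all 3 lists. Pik3c3 was the other higher gene and Gphn the lower gene, each with a summit in rescue only. Of the 5 genes gained from background, 0 had a summit that near in any list. The floxed list, from cells without the tag, gave 2 higher genes, 1 lower gene and 125 (1.18%) of all. Such small numbers do not set the called genes apart from the rest.

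The counts for the gene lists below are to be read against 5.92% higher and 7.83% lower among all measured genes. A share near these says nothing particular about a list. The Hox clusters are classic Polycomb targets that pattern the body axis. HoxC had 9 measured and 0 called, with a median log2 ratio of -0.14, and HoxD had 8 and 0, with -0.07. HoxB had 9 with 1 lower and a median of -0.18, and HoxA 5 with 1 lower and a median of -0.03 (0.02 with TMM factors). The lower HoxB gene was Hoxb3, with 110 counts in rescue, 231 in deleted and 229 in floxed (ratio 0.279). Hoxc9 is an example of a matched gene, with 883, 377 and 502 counts (ratio 1.02).

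Developmental transcription factors, 130 measured, had 1 member higher and 9 lower and a median of -0.11, so the lower share was near that of all genes. The higher one was the homeobox gene Gbx2, with 268 counts in rescue, 46 in deleted and 50 in floxed (ratio 3.12, 2.30 to 4.31). Among the lower ones were the homeobox genes Irx1, with 104, 209 and 239 (ratio 0.253), and Irx2, with 100, 149 and 154 (ratio 0.378), and Sox3, with 47, 63 and 69 (ratio 0.396). Wnt, Fgf, Bmp and Gdf ligands, 44 measured, had 0 higher and 3 lower, Fgf10, Wnt5a (ratio 0.461) and Bmp4 (0.599), with a median of -0.12. Axon guidance genes, 42 measured, had 1 higher, the receptor gene Ephb1 at 1.99, and 4 lower led by Nrp2, with a median of -0.13.

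The CDK inhibitor list had 0 of 4 members higher and 1 lower, Cdkn2c with 58, 86 and 95 counts (ratio 0.355), and the median was -0.06. The genes of PRC2 itself (3 measured, median -0.13) had 0 called. Of 9 PRC1 genes 1 was lower, Pcgf2 with 32, 46 and 50 counts, and the median was 0.01. Of 16 MLL fusion targets 0 were called, with a median of -0.01 (0.04 with TMM factors), among them Mecom at 1.12 and Mef2c at 1.04. These medians stand beside -0.05 for all measured genes.

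Most members of the blood lineage lists were not called. Granulocyte and monocyte maturation genes, 11 measured, had 2 higher, Mpo and its neighbour Lpo, and 2 lower, the collagenase gene Mmp8 (76, 94 and 101 counts, ratio 0.438) and the M-CSF receptor gene Csf1r (32, 42 and 38, ratio 0.490). Their median was 0.11, and Mpo passed the count limit through its rescue counts alone. Stem and progenitor genes, 25 measured, had 2 higher, among them Gfi1b at 1.59, and 3 lower, with a median of 0.07. Kit, the stem cell factor receptor gene, was lower with 187 counts in rescue, 260 in deleted and 255 in floxed (ratio 0.426), and Egr1 was at 0.556. Nrp2 is the third and is shared with the axon guidance list.

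B-cell genes had 0 higher and 2 lower of 14 (median -0.08), with Il7r at 0.498. T-cell and NK-cell genes had 2 higher, the granzyme genes Gzma at 1.67 and Gzmb at 1.70, and 3 lower of 20 (median -0.09). Erythroid and megakaryocyte genes had 1 higher and 1 lower, Itgb3 at 0.347, of 8 (median -0.15). Mast cell, basophil and eosinophil genes had 0 higher and 1 lower, Prg2 at 0.568, of 7 (median 0.19). Stromal and endothelial genes had 0 higher and 1 lower, Flt1 at 0.583, of 16 (median -0.06).

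Among the other lists, cell adhesion and junction genes had 2 of 23 higher, Jup and Cldn1 at 1.63, and 3 lower, among them Cldn4 at 0.430, with a median of -0.00 (0.05 with TMM factors). Of 7 p53 targets, the kinase gene Plk3 was higher with 68 counts in rescue, 1 in deleted and 7 in floxed (ratio 5.65) and Phlda3 lower at 0.647, with a median of -0.14. Of 9 interferon-stimulated genes, 0 were higher and 2 lower, Oas2 and Oas3, with a median of -0.18. Imprinted genes had 2 of 30 higher, among them Peg10 with 165, 45 and 39 counts (ratio 2.46), and 4 lower, among them Dlk1, Meg3 and Blcap (ratio 0.291), with a median of 0.02. Olfactory receptor genes had 0 higher and 1 lower of 39 (median -0.06). X-linked genes had 31 higher and 28 lower of 332 (median 0.09). Of 32 housekeeping genes only Actb and another were measured, and Actb had 39, 13 and 6 counts. Actb and Plk3 passed the count limit through rescue alone, so neither call is a finding about its list. Under housekeeping scaling every list median but that of the housekeeping genes was below 0.

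**Figure D5:**
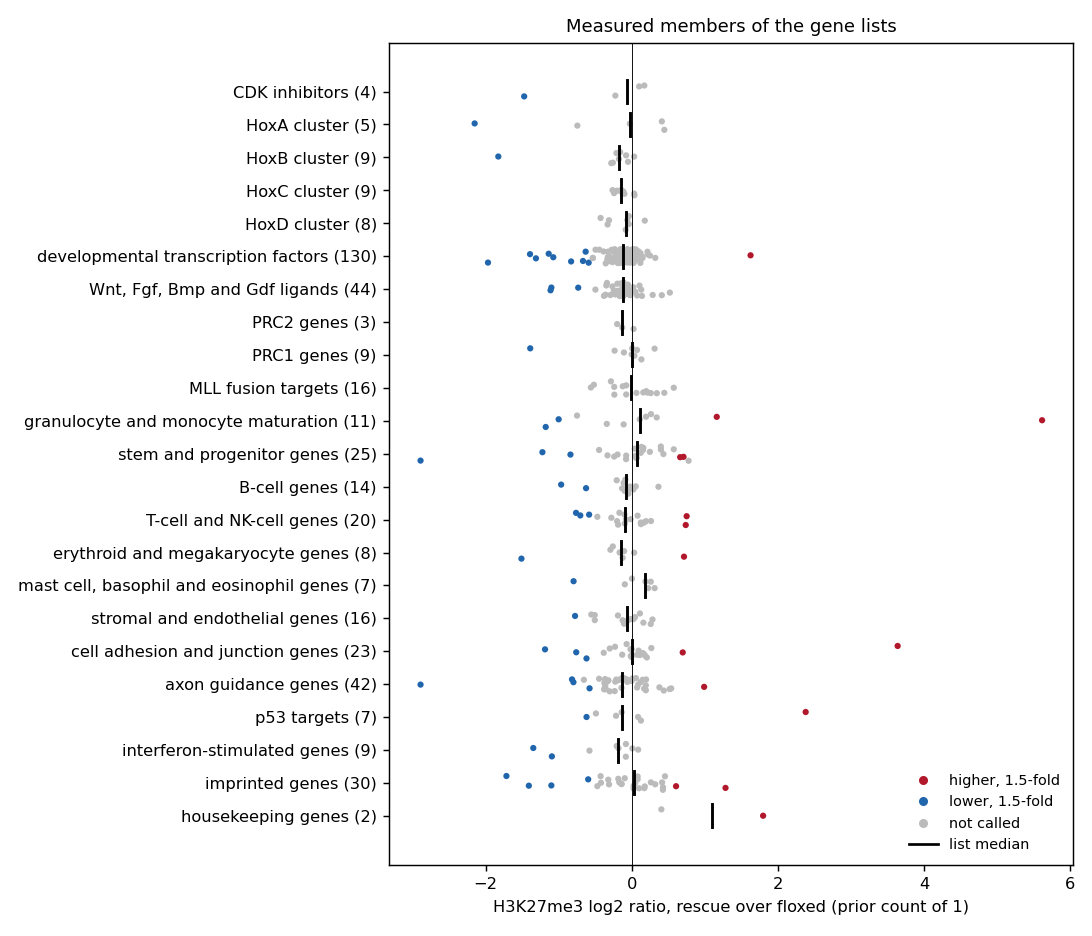
H3K27me3 log2 ratio of rescue over floxed for the measured members of each gene list, with the number measured in brackets. Points are genes, red where higher and blue where lower by the 1.5-fold rule, and black bars are list medians. Medians lie between -0.18 and 0.19 except for the 2 housekeeping genes, and single members such as Mpo, Jup, Plk3 and Nrp2 lie far from their lists.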

How the data were processed

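For each histone library the authors deposited whole-number counts per gene, without normalisation, in 27179 rows carrying Entrez identifiers, symbols and lengths. By those lengths, H3K27me3 was counted over gene spans and H3K4me3 in windows of fixed size, with 2 exceptions. Counting with featureCounts, peak calling with MACS2 and the build mm10 are named in the submitters' processing notes, with no version, and no source used here gives the aligner. For the Flag libraries the authors deposited summits, each with a −log10 score that was not used. Rows without a symbol (568, with 0.608% to 0.739% of a library's counts) and 1 length below 0 were left out of totals and densities. Input chromatin was not used here.

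Gene positions and promoters came from RefSeq tables of GRCm38.p6, matched on the Entrez identifier or symbol, and 10619 measured genes had a position. Whether counting used strand is not stated, so overlapping genes cannot be separated. Log2 ratios used a prior count of 1. CPM here scale counts to the named-gene total of the library. Named-gene totals were 2444487 to 4203349 for H3K27me3 and 395133 to 645240 for H3K4me3, so H3K4me3 ratios are less precise.

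The genes named are Cdkn2a, Cdkn2b and Hhex, the 12 higher and 12 lower genes whose interval lies farthest from 1 without predicted genes, the members and neighbours of the 8 gained and 8 lost domains with the most counts, up to 4 called members of each list, and the genes most changed in H3K4me3. Others named were picked after their values were seen, and a few genes under these rules are not reported here. The members and lists were chosen with earlier results of these data known. Alternatives were edgeR 4.0.16 TMM factors, DESeq2 1.42.0 size factors, housekeeping scaling, other count limits and folds, thinning, and no overlapping genes. These tools gave scaling factors only. The size rule was tested on simulated data. Scripts ran in Python 3.11.15 and R 4.3.3.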

Additional observations from a re-analysis of the deposited data

How the results depend on the processing

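No paired analysis was possible because each group has 1 library and the labels give no replicate numbers; nothing could be left out either. At 643 higher and 850 lower genes, 26 gained and 14 lost domains, edgeR TMM factors (764, 731, 33 and 10) and DESeq2 size factors (733, 766, 32 and 10) stayed within 1.5 times. Scaling to housekeeping genes gave 171 higher, 5107 lower, 9 gained and 158 lost domains. It rests on 258 rescue and 103 floxed counts, and it moved all 25 list medians, 20 chromosome medians and 62 of 99 ratios of named genes beyond their interval or spread. A mean of at least 100 counts gave 293, 254, 5 and 2, since fewer genes were tested. At least 1 count gave 1000 higher genes and 26 lost domains. With rescue thinned to the floxed total, 8 lost domains were left. Calls at 2-fold were 325 and 309, and at 3-fold 111 and 77. Domains of 1.5-fold genes numbered 65 gained and 72 lost, and of 3-fold genes 9 and 0. Chosen after seeing the data, a limit of 20 counts on the deleted library gave 506 higher and 850 lower genes, 9 gained and 16 lost domains, leaving out the 3 sparsest density classes gave 311 higher genes and 5 gained domains, and the 75th percentile gave 24 genes gained from background and 11 lost to it. For H3K4me3, against 132 higher and 261 lower, a mean of at least 100 counts gave 7 and 7, and 2-fold calls were 23 and 97. Housekeeping scaling lowers every ratio alike, and under it 8 of 43 higher and 0 of 53 lower named genes were no longer called. Where no cause is given, the cause was not tested. The H3K4me3 windows with few counts are limited by depth.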

Other observations

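Long spans that gained H3K27me3 outside the runs of neighbouring genes came to light with the 75th percentile as the limit for a dense gene, and they were picked after their values were seen. Slc44a1, a choline transporter gene on chromosome 4, had 3558 counts in rescue, 556 in deleted and 682 in floxed, a ratio of rescue over floxed of 3.03 (2.79 to 3.30). Dnah17, a dynein gene of sperm tails on chromosome 11, had 1796, 374 and 381 counts, and the ratio was 2.74 (2.45 to 3.07). Golm1, a Golgi membrane protein gene, had 661, 30 and 105 counts (3.66-fold), and Limd1, a LIM domain scaffold gene, had 698, 10 and 52 (7.81-fold). In these, too, rescue was the high library. Among the 11 genes lost by the same limit, Adcyap1, which encodes the neuropeptide PACAP, had 24, 94 and 59 counts, and the ratio was 0.237 (0.141 to 0.386). Socs2, a cytokine signalling inhibitor gene, had 24, 33 and 53 counts, and the ratio was 0.263 (0.155 to 0.434).

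Whole chromosomes did not stand far apart. Median log2 ratios of rescue over floxed ran between -0.10 on chromosome 2 and 0.09 on the X chromosome, beside -0.05 for all measured genes. On the X chromosome, 31 (9.34%) of 332 measured genes were higher and 28 (8.43%) lower, beside 5.92% and 7.83% of all measured genes. Under housekeeping scaling the median of the X chromosome was -0.45 and that of chromosome 2 was -0.64.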
